A study of Mus musculus with 9 samples.

Results

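The 10 genes described here encode the serotonin pathway of enterochromaffin cells and 2 products that mark these cells: Tph1, Ddc and Gch1 (synthesis), Slc18a1 and Slc18a2 (vesicular uptake), Slc6a4, Maoa and Maob (reuptake and breakdown), Tac1 (tachykinins) and Lmx1a (a transcription factor). They were taken by symbol from the 35013 genes that both deposited tables list, and all 10 were present and passed the expression filter in both. Mice of 4 to 6 weeks, called NFKO, gave small intestinal epithelial cells that were sorted into 3 populations, and poly-A RNA of 3 biological replicates of each was sequenced. Every group has the same genotype, Neurog3Cre-FoxO1 f/f with Rosa26tdtomato, and no group is Neurog3-lineage cells with intact FoxO1. Neurog3Cre acts in endocrine progenitors and their descendants, which Tomato marks, so Tomato+ and Tomatoneg cells differ both in lineage and in the action of Cre on FoxO1, and these cannot be told apart. CD24negTomato+ and CD24+Tomato+ cells are the Tomato+ cells without and with surface CD24, and Tomatoneg cells are the other epithelial cells of such mice. Each Tomato+ population shares a table with the Tomatoneg libraries, which are thus in both tables. The tables were scaled separately, so the question asked of each gene was whether Tomato+ differed from Tomatoneg within a table.

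Enterochromaffin cells are the enteroendocrine cells that make most of the serotonin of the body. Tph1 hydroxylates tryptophan in the rate-limiting step, using tetrahydrobiopterin, whose synthesis starts with Gch1, and Ddc removes the carboxyl group to give serotonin. Slc18a1 (VMAT1) and Slc18a2 (VMAT2) load serotonin into vesicles, Slc6a4 (SERT) takes released serotonin into neighbouring cells, in the gut chiefly absorptive enterocytes, and Maoa and Maob oxidize it on the mitochondrial surface. Tac1 encodes the precursor of substance P and neurokinin A, peptides of a subset of enterochromaffin cells, and Lmx1a is a LIM homeodomain factor that regulates genes of serotonin synthesis in these cells.

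The values are normalized counts: kallisto gene estimates that the authors divided by DESeq2 factors. Depth was estimated at 27723808 to 39233080 reads in Tomato+ and 19157905 to 24368380 reads in Tomatoneg libraries, and 3 reads, taken as the detection floor, were worth 2.10 to 2.92 and 3.23 to 4.29 normalized counts. Tomatoneg replicate 1 stood apart, with 13025 genes above 0 against 15644 to 18530 in the other libraries. For Foxo1, the gene targeted by Cre, replicates 1, 2 and 3 of CD24negTomato+ gave 467, 274 and 371 normalized counts against 695, 518 and 424 in Tomatoneg (log2 fold change -0.56, limma adjusted P = 0.427), and 319, 193 and 201 in CD24+Tomato+ against 748, 529 and 444 (-1.27, adjusted P = 0.0579; 0.022 with the replicate number as a block, and 0.022 to 0.243 over all alternatives). These gene-level estimates do not separate the floxed part of Foxo1 from the rest of the transcript. Cd24a, which encodes the sorted antigen, had 993 to 2054 normalized counts in CD24negTomato+ and 25857 to 30949 in CD24+Tomato+ libraries, and Epcam, the epithelial antigen stained in the sort, had 20915 to 37673 in all libraries of both tables.

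Against Tomatoneg, 6 of the 10 genes were higher and 2 lower in CD24+Tomato+ cells, while 1 was higher and 0 lower in CD24negTomato+ cells (limma on log2(normalized count + 1), adjusted P under 0.05 over all tested genes). In the CD24+Tomato+ table the genes of synthesis, Slc18a1, Tac1 and Lmx1a rose, and Slc6a4 and Maoa fell. In the CD24negTomato+ table Tac1 rose. Of all 13874 genes tested for CD24+Tomato+, 8.02% were higher and 4.89% lower. Of the 13420 tested for CD24negTomato+, 0.999% were higher and 0.32% lower. Without adjustment (limma P under 0.05) the 10 genes gave 5 higher and 0 lower there. The share of all tested genes at an unadjusted P was not computed, here or for the lists below, so unadjusted counts have no background beside them. The median log2 fold change of the 10 genes was 2.14 in CD24+Tomato+, beside 0.16 for all tested genes, and 1.31 in CD24negTomato+, beside 0.08. Setting Slc18a2 at its detection bound could not move either median, since its value and its bound both lie above the middle values. Groups did not overlap for 6 genes that were higher and 3 that were lower in CD24+Tomato+ (21.6% and 14.4% of all tested genes) and for 5 genes that were higher and 0 that were lower in CD24negTomato+ (14.7% and 10.6%). Whether the 2 Tomato+ populations differ from each other was not tested, since no table holds both. A fit with same-numbered libraries as blocks gave 6 higher and 3 lower in CD24+Tomato+ (10.8% and 9.95% of all genes tested) and 4 higher and 0 lower in CD24negTomato+ (4.34% and 2.96%). Without CD24+Tomato+ replicate 1, 2 or 3, the 8 calls in that table became 4, 3 and 4. Over all genes, the 1791 calls there became 669 of 13736, 168 of 13825 and 329 of 13858 tested. The single call in the CD24negTomato+ table became 0 without CD24negTomato+ replicate 2 or 3, and 5 without Tomatoneg replicate 1. Over all genes, the 177 calls there became 18 of 13358, 45 of 13390 and 1059 of 13431 tested. In bulk RNA from sorted populations, fewer cells of a type and less RNA per cell cannot be told apart.

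**Figure D1:**
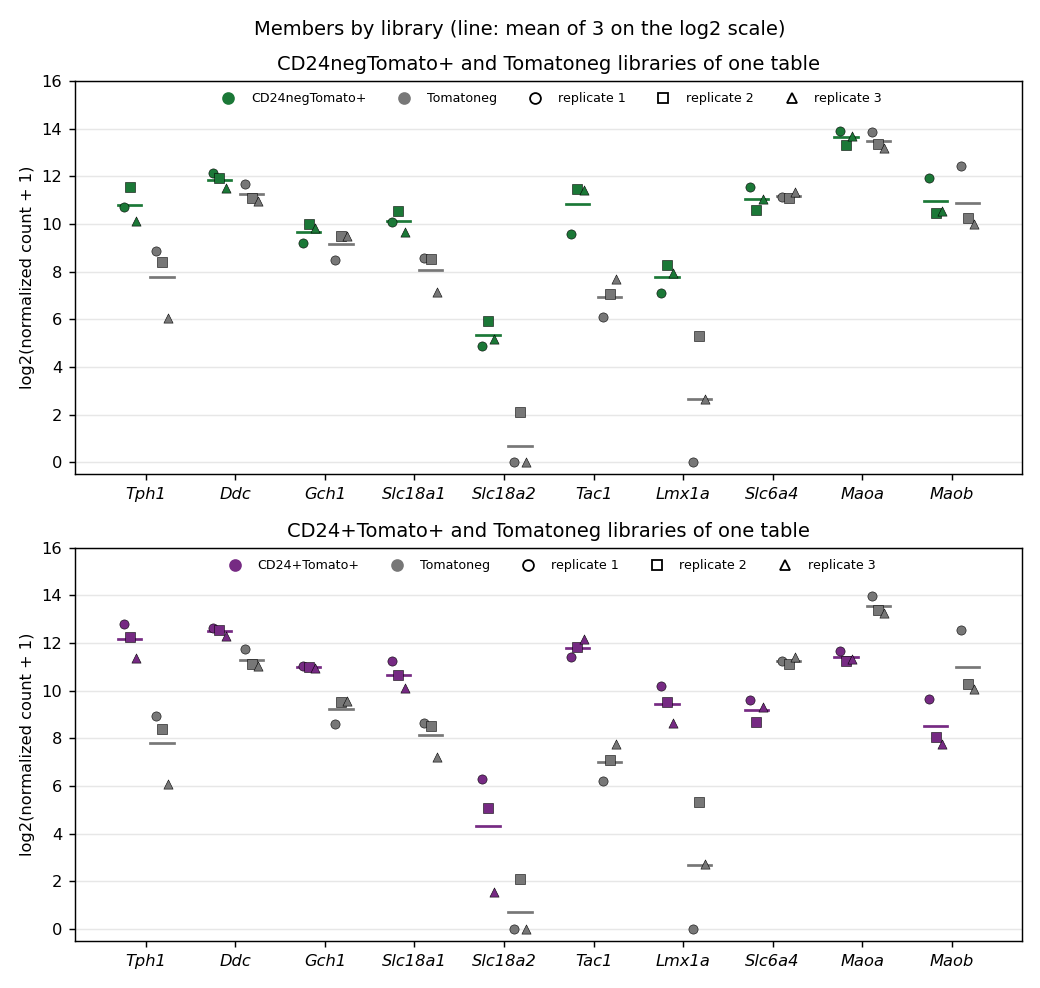
Each point is the log2(normalized count + 1) of a gene in a library, with Tomato+ libraries in colour and Tomatoneg libraries in gray, replicates 1, 2 and 3 as circles, squares and triangles, and a line at the mean of 3. The upper panel holds the CD24negTomato+ table and the lower the CD24+Tomato+ table. Points of Tac1 stand far above Tomatoneg in both panels, whereas for Slc6a4, Maoa and Maob all coloured points lie below all gray points in the lower panel and not in the upper, a contrast between panels that was not tested.

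Tph1 (chromosome 7, 46644641 to 46672537, minus strand, GRCm38) had 7221, 4953 and 2662 normalized counts in replicates 1, 2 and 3 of CD24+Tomato+ cells, while Tomatoneg cells of that table had 484, 335 and 66.4. The lowest CD24+Tomato+ library was more than 5 log2 units above Tomatoneg replicate 3, its same-numbered library, and the groups did not overlap. Its log2 fold change was 4.36 (SE 0.74, n = 3 per group, limma adjusted P = 0.0128), and the ratio of the means was 16.8. The call was lost without CD24+Tomato+ replicate 2 (adjusted P = 0.0751). In the CD24negTomato+ table, Tph1 had 1671, 2969.7 and 1106 normalized counts against 468, 342 and 66.0. Every CD24negTomato+ library was again above every Tomatoneg library, but the Tomatoneg libraries themselves spanned a wide range. Its log2 fold change of 3.0 (SE 0.73) did not pass the threshold (adjusted P = 0.096). It passed with the replicate number as a block (adjusted P = 0.020) and without Tomatoneg replicate 1 (0.0343), within a range of 0.020 to 0.369 over all alternatives.

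Tph1 is listed by RefSeq (GRCm38.p6) with 2 transcription starts on the minus strand. The 250 bases before each are shown because Tph1 carries the committed step of the pathway. In CD24+Tomato+ cells Lmx1a was higher with it, and a link between them was not tested. Lmx1a binds A/T-rich homeodomain sites. Capitals mark TAATTA, a core of such sites.
Tph1, first start, chr7:46672538-46672787: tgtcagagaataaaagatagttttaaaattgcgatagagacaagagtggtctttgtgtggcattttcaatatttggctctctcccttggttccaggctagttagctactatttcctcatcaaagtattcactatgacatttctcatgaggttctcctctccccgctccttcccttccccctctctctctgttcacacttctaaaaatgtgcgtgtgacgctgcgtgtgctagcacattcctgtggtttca
Tph1, second start, chr7:46667378-46667627: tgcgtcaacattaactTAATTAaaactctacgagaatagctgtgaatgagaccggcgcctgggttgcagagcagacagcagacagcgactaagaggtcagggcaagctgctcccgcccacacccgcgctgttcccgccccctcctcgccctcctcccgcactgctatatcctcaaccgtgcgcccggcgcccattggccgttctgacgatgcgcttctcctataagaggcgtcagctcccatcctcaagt
Such windows were present for 8 of the 10 genes. They were searched on both strands for TAATTA, for the forkhead motif GTAAACA (reverse complement TGTTTAC) and for the endocrine E-box CAGATG, whose reverse complement is CATCTG. No match overlapped another. TAATTA was found 234 bases before the second start of Tph1 and 100 bases before the start of Tac1, and CAGATG 173 bases before the start of Tac1. Of the 250 bases before the RefSeq start of Tac1, 182 lie in exons of GENCODE, whose Tac1 starts further upstream, and both Tac1 matches are within them. The first window of Tph1 and those of Ddc, Gch1, Slc18a2, Slc6a4, Maoa and Lmx1a held none of these letters. Of 32851 windows of this length, 4.84% held TAATTA, 3.17% GTAAACA and 14.4% CAGATG. A match is a description of the sequence and not a bound site.

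Ddc, aromatic L-amino acid decarboxylase (chromosome 11, 11814101 to 11898144, minus strand), had 6319, 6012 and 5006 normalized counts in the CD24+Tomato+ replicates and 3493, 2219 and 2085 in Tomatoneg. All 3 CD24+Tomato+ libraries lay above the highest Tomatoneg library. The difference was small beside that of Tph1, with a log2 fold change of 1.19 (SE 0.25, adjusted P = 0.025), and it lost the threshold without any of the CD24+Tomato+ replicates (adjusted P = 0.0938, 0.136 and 0.0795 without replicates 1, 2 and 3) and without Tomatoneg replicate 2 (0.0676) or 3 (0.0586). In the other table Ddc had 4493, 3847 and 2881 normalized counts in CD24negTomato+ against 3299.8, 2207 and 2023. These groups overlapped, since Tomatoneg replicate 1 exceeded CD24negTomato+ replicate 3. Its log2 fold change was 0.59 (SE 0.28, adjusted P = 0.332). Ddc was thus well expressed in Tomatoneg cells, where it had the second highest level per kilobase of the 10 genes.

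Gch1, GTP cyclohydrolase (chromosome 14, 47153895 to 47189413, minus strand), had 2072, 2033 and 1972 normalized counts in CD24+Tomato+, with the smallest relative spread of the 10 genes in that group, against 389, 737 and 754 in Tomatoneg. The groups were far apart, and Tomatoneg replicate 1 was the lowest library. Gch1 had a log2 fold change of 1.75 (SE 0.30, adjusted P = 0.0129), which missed the threshold without CD24+Tomato+ replicate 1 (adjusted P = 0.0513), 2 (0.086) or 3 (0.0643). In CD24negTomato+ cells it had 586, 1033 and 916 normalized counts against 361, 720.4 and 718. The lowest library of each group was replicate 1, the groups overlapped, and the log2 fold change of 0.52 (SE 0.37) had an adjusted P of 0.504.

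Slc18a1 (chromosome 8, 69037711 to 69089235, minus strand) was the vesicular transporter that could be measured well. In CD24+Tomato+ cells it had 2428, 1603 and 1093 normalized counts, against 403, 369 and 146 in Tomatoneg. Replicate 3 was the lowest library of both groups, as it was for Tph1, and the groups did not overlap. Slc18a1 had a log2 fold change of 2.53 (SE 0.47, adjusted P = 0.0171), and the call was lost without CD24+Tomato+ replicate 1 (adjusted P = 0.0666), 2 (0.0944) or 3 (0.0539). CD24negTomato+ libraries had 1078, 1509 and 820.2 normalized counts of Slc18a1 against 379, 365 and 141, again with no overlap. There, the log2 fold change of 2.03 (SE 0.45) had an adjusted P of 0.0779, which was 0.0175 with the replicate block and 0.0346 without Tomatoneg replicate 1 (0.0175 to 0.346 over all alternatives).

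Slc18a2 (chromosome 19, 59260896 to 59296012, plus strand) had low counts, and in Tomatoneg libraries it was at or under the detection floor. It had 28.3, 60.8 and 34.9 normalized counts in CD24negTomato+ libraries and 0, 3.26 and 0 in Tomatoneg, where all 3 libraries were at or under 3 reads. The CD24negTomato+ mean was therefore at least 11.8-fold higher than the Tomatoneg floor, and the 2 groups did not overlap, but the limma adjusted P was 0.0927 (0.0364 without Tomatoneg replicate 1, and 0.0364 to 0.471 over all alternatives). CD24+Tomato+ libraries had 77.8, 32.9 and 1.94 normalized counts against 0, 3.33 and 0. Replicate 3 was itself below 3 reads and within the Tomatoneg range, and the adjusted P was 0.161. Exons of Slc18a2 overlap the gene Gm29261 on the opposite strand, and the strand setting of the quantification is not given in the sources used here. Per kilobase of the longest coding transcript, Slc18a2 made up 0.146% to 3.38% of the summed level of both vesicular transporters in Tomato+ libraries and at most 0.738% in Tomatoneg libraries.

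Tac1 (chromosome 6, 7554879 to 7565834, plus strand) was the member that passed the threshold in both tables. It had 2747, 3681 and 4553 normalized counts in CD24+Tomato+ libraries against 73.3, 134 and 216 in Tomatoneg. Each CD24+Tomato+ library was more than 10 times the highest Tomatoneg library. Tac1 had a log2 fold change of 4.79 (SE 0.42, adjusted P = 0.00172), which passed under every alternative run (adjusted P 0.000151 to 0.0226). In CD24negTomato+ libraries Tac1 had 775, 2870.3 and 2735 normalized counts against 68.0, 131 and 206. Replicate 1 was the lowest library of both groups, and the groups did not overlap. The difference (log2 fold change 3.89, SE 0.61, adjusted P = 0.0327) lost its call without CD24negTomato+ replicate 2 (adjusted P = 0.187) or 3 (0.124) and without Tomatoneg replicate 2 (0.0799).

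Lmx1a (chromosome 1, 167689237 to 167848741, plus strand) had 1188, 727 and 403 normalized counts in CD24+Tomato+ and 0, 38.7 and 5.60 in Tomatoneg. It was listed at 0 in Tomatoneg replicate 1, and all CD24+Tomato+ libraries were far above the highest Tomatoneg value. The log2 fold change of 6.78 (SE 1.27, adjusted P = 0.0173) was the largest of the 10 genes but also the one with the largest SE among those that passed in that table, and the call was lost without CD24+Tomato+ replicate 1 (adjusted P = 0.0743), 2 (0.0967) or 3 (0.0666) and with a pseudocount of 0.1 (0.0557). CD24negTomato+ libraries had 136, 313 and 246 normalized counts of Lmx1a, again above every Tomatoneg library. The log2 fold change there was 5.13 (SE 1.27, adjusted P = 0.0969). It passed with the replicate block (0.0344), with a pseudocount of 10 (0.0340) and without Tomatoneg replicate 1 (0.0379) or 2 (0.0494), within a range of 0.0340 to 0.388 over all alternatives.

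Slc6a4 (chromosome 11, 76998603 to 77032340, plus strand), the serotonin reuptake transporter, went the other way in CD24+Tomato+ cells, with 778, 407 and 642 normalized counts against 2421, 2214 and 2737 in Tomatoneg. The highest CD24+Tomato+ library was far below the lowest Tomatoneg library. The log2 fold change was -2.06 (SE 0.28, adjusted P = 0.00733), and it passed under every alternative (adjusted P 0.00118 to 0.0438). In CD24negTomato+ cells Slc6a4 had 3010.0, 1518 and 2097 normalized counts against 2247, 2164 and 2608. The CD24negTomato+ libraries lay on both sides of the Tomatoneg range, with a log2 fold change of -0.13 (SE 0.28, adjusted P = 0.841).

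Maoa (chromosome X, 16619698 to 16687818, plus strand) had 3265, 2424 and 2543 normalized counts in CD24+Tomato+ libraries and 16194, 10821 and 9853 in Tomatoneg. The groups were well apart, with replicate 1 the highest library of each. The log2 fold change was -2.14 (SE 0.26, adjusted P = 0.00536), and it passed under every alternative (adjusted P 0.000262 to 0.048). CD24negTomato+ libraries had 15451, 10289.8 and 13093 normalized counts against 15043, 10582 and 9397, which overlapped throughout (log2 fold change 0.16, SE 0.28, adjusted P = 0.798). The 250 bases before the RefSeq start of Maoa are shown as those of a gene that fell where Tph1 rose, and hold none of the 3 motifs.
Maoa, chrX:16619448-16619697, plus strand: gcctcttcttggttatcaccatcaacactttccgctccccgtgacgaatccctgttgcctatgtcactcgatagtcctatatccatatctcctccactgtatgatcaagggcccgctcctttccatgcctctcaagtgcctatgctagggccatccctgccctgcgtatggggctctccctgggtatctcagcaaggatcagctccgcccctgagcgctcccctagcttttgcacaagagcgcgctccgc

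Maob (chromosome X, 16709282 to 16817366, minus strand), the neighbour of Maoa, had 803, 267 and 219 normalized counts in CD24+Tomato+ and 6074, 1259.6 and 1067 in Tomatoneg. Replicate 1 was the highest library of each group by a wide margin, yet no CD24+Tomato+ library reached the Tomatoneg range. The log2 fold change of -2.48 (SE 0.75) did not pass (adjusted P = 0.0738). With the replicate block, which compares same-numbered libraries, its SE was 0.22 and its adjusted P 0.000695 (0.000695 to 0.242 over all alternatives). In CD24negTomato+ cells Maob had 3874, 1399 and 1473 normalized counts against 5602, 1223 and 1011, with overlapping groups and a log2 fold change of 0.07 (SE 0.69, adjusted P = 0.970).

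Enterocyte markers moved with the reuptake and breakdown genes in the CD24+Tomato+ table. Of 12 such markers, all tested, 0 were higher and 7 were lower in CD24+Tomato+ (0 and 12 with the replicate block). Summed over the 12, CD24+Tomato+ libraries had 58515 to 180674 normalized counts and Tomatoneg libraries 329129 to 1236364, and the median log2 fold change was -2.69. Among them, the apolipoprotein gene Apoa1 fell by 2.88 on the log2 scale, the brush border phosphatase gene Alpi by 2.78, the peptidase gene Anpep by 2.61 and the fatty acid binding gene Fabp1 by 2.58. With a pseudocount of 0.1, Apoa1 (adjusted P = 0.0550) and Anpep (0.0539) did not pass, nor did Apoa1 with equal library totals (0.0505). Without CD24+Tomato+ replicate 2 or 3, 0 of the 12 passed. In the CD24negTomato+ table, where Slc6a4, Maoa and Maob did not pass, 0 enterocyte markers passed in limma (1 at an unadjusted P under 0.05, and 1, Fabp2, with the block), with sums of 404925 to 968943 against 322666 to 1152198 and a median log2 fold change of 0.19. The part of enterocyte content in the Slc6a4, Maoa and Maob differences was not tested.

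**Figure D2:**
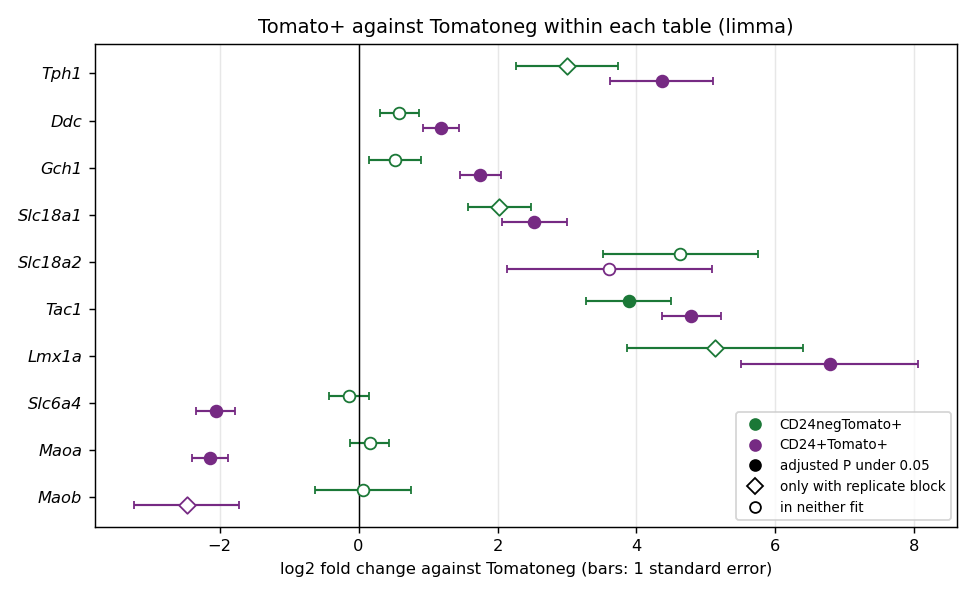
Log2 fold change of each gene against Tomatoneg within its table (green, CD24negTomato+, purple, CD24+Tomato+), with bars of 1 SE from limma. Filled circles passed an adjusted P of 0.05, open diamonds passed only with the replicate block, and open circles passed in neither fit. Synthesis, vesicular and marker genes lie right of 0 in both comparisons, from 0.52 to 6.78, and Slc6a4, Maoa and Maob lie between -2.48 and -2.06 in CD24+Tomato+ and between -0.13 and 0.16 in CD24negTomato+.

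Levels per kilobase of the longest coding transcript put the 10 genes in a different order in each population. In Tomatoneg libraries the order of the medians was Maoa (2540 normalized counts per kilobase), Ddc (1094), Slc6a4 (804), Maob (507), Gch1 (259), Slc18a1 (117), Tac1 (107), Tph1 (74.9), Lmx1a (1.60) and Slc18a2 (0). Ranges overlapped between Slc6a4 and Maob, between Slc18a1 and Tac1, between Tac1 and Tph1 and between Lmx1a and Slc18a2, and neighbours otherwise did not overlap. CD24negTomato+ libraries had Maoa first (3142), then Tac1 (2223), Ddc (1906), Slc6a4 (750.0), Maob (611), Tph1 (366), Slc18a1 (346), Gch1 (330.1), Lmx1a (73.5) and Slc18a2 (9.22). Here Tac1 overlapped Ddc, the genes from Slc6a4 to Gch1 each overlapped the next, and the other neighbours were separate. In CD24+Tomato+ libraries Tac1 (2993) and Ddc (2979) overlapped at the top, and Tph1 (1086) came next, below the range of Ddc. Gch1 (733), Maoa (610.3) and Slc18a1 (515) followed, each overlapping the next and Gch1 overlapping Tph1. Slc6a4 (230), Lmx1a (217), Maob (111) and Slc18a2 (8.71) had the lowest levels, with separate ranges between Slc18a1 and Slc6a4 and between Maob and Slc18a2. Tph1 was thus the 8th of the 10 genes in Tomatoneg and the 3rd in CD24+Tomato+ libraries.

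Some ratios within a library followed the replicate number more than the population. Maob made up 30.2%, 19.0% and 16.3% of the summed per-kilobase level of Maoa and Maob in CD24negTomato+ replicates 1, 2 and 3, 29.8%, 16% and 13% in CD24+Tomato+ and 39.2%, 16.6% and 15.7% in Tomatoneg, so replicate 1 had the highest share in all 3 populations. The ratio of Tac1 to Tph1 normalized counts was 0.464, 0.967 and 2.47 in CD24negTomato+, 0.38, 0.743 and 1.71 in CD24+Tomato+ and 0.145, 0.384 and 3.12 in Tomatoneg. Replicate 1 had the lowest and replicate 3 the highest value in each population. Since it is not divided by length, this ratio is read only between libraries. The ratio of Tph1 to Chga, the granin carried by most enteroendocrine cells, was 0.17, 0.15 and 0.0721 in CD24negTomato+, 0.15, 0.14 and 0.108 in CD24+Tomato+ and 0.356, 0.285 and 0.0959 in Tomatoneg libraries. It was lowest in replicate 3 of each population.

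**Figure D3:**
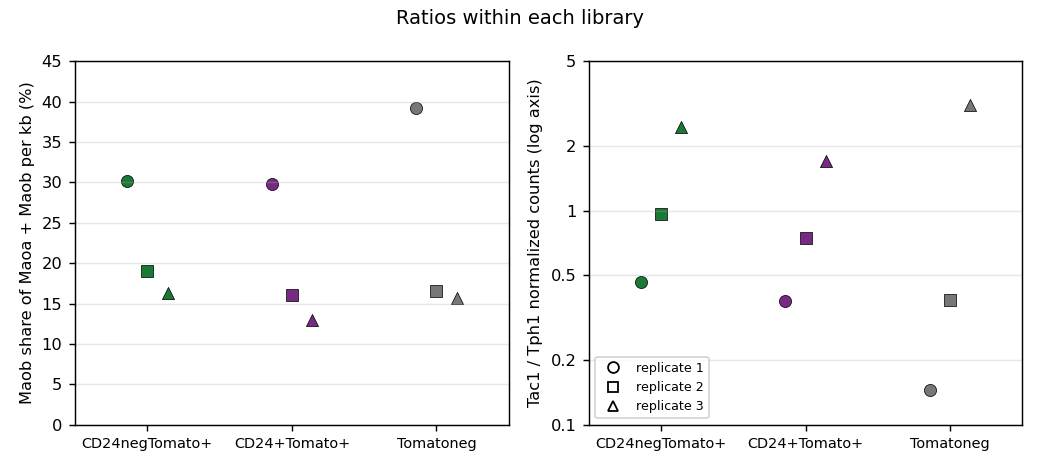
Left, share of Maob in the summed per-kilobase level of Maoa and Maob (%), and right, Tac1 over Tph1 normalized counts (log axis), for each library of the 3 populations, with Tomatoneg values from the CD24negTomato+ table. Circles (replicate 1) are highest on the left, from 29.8% to 39.2%, and triangles (replicate 3) are highest on the right, from 1.71 to 3.12.

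Across the 6 libraries of each table, the genes whose log2 values were most like those of Tph1 were Adcy2 (an adenylyl cyclase), Slc18a1, Dusp18 (a dual-specificity phosphatase), Neurod1 (an endocrine transcription factor) and Tubb4a (a tubulin). They were ranked by the lower Pearson's r of the 2 tables among 13238 genes tested in both, with 0.995 for Adcy2, 0.994 for Slc18a1 and 0.984 for Tubb4a. Each r includes the difference between Tomato+ and Tomatoneg groups, and the tables share the Tomatoneg libraries. Of the other members, Ddc ranked 399th, Slc18a2 566th, Tac1 1237th, Lmx1a 1267th and Gch1 3515th, while Maob ranked 8384th (lower r -0.53), Maoa 11331st (-0.82) and Slc6a4 12371st (-0.90).

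Other genes of the pathway were examined by list. Of 7 genes that make or recycle tetrahydrobiopterin, 1 was higher in CD24+Tomato+, Pcbd1, the dehydratase of the recycling step, with 1808, 2101 and 2151 normalized counts against 622, 1150.3 and 1085 (log2 fold change 1.13, adjusted P = 0.0404), and 0 were lower (2 at an unadjusted P under 0.05). In CD24negTomato+ 0 of the 7 passed with limma, at an adjusted or an unadjusted P of 0.05. Tph2, the neuronal hydroxylase, was at most 1.40 normalized counts, below the 3-read floor, in every library. Of 9 further genes of serotonin transport and metabolism, 4 were tested. Slc29a4 (PMAT), a low-affinity monoamine transporter, rose by 2.82 on the log2 scale in CD24+Tomato+, with 300.0 to 423 normalized counts against 42 to 62.2, and the other 3 did not pass. None of the 4 passed in CD24negTomato+ with limma (0 at an unadjusted P under 0.05). Without any 1 of the 6 libraries, the count of passing genes in CD24+Tomato+ was 0 to 1 for either list, with 0 without CD24+Tomato+ replicate 2 or 3 in both lists. The first list also fell to 0 without CD24+Tomato+ replicate 1 or Tomatoneg replicate 3, and Pcbd1 did not pass with a pseudocount of 0.1 (adjusted P = 0.0506) or equal library totals (0.0553).

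Of 10 genes of tryptophan uptake and the kynurenine route, which competes for tryptophan, 6 were tested. Slc7a8 and Slc3a2, the light and heavy chain of an amino acid exchanger, fell in CD24+Tomato+ by 2.0 and 1.15 on the log2 scale (adjusted P = 0.0361 and 0.0419), and 0 of the 6 were higher (1 at an unadjusted P under 0.05, and 1 higher and 3 lower with the block). Without CD24+Tomato+ replicate 2 or 3 neither passed, and without CD24+Tomato+ replicate 1 or Tomatoneg replicate 2 or 3 only 1 did. Quantile normalization ended the calls of Slc7a8 (adjusted P = 0.0553) and Slc3a2 (0.0713), and a pseudocount of 0.1 that of Slc3a2 (0.0533). The gene higher in CD24+Tomato+ without adjustment and with the block was Slc7a5. It had 1003, 1039 and 1532 normalized counts against 94.9, 625 and 612 (log2 fold change 1.81, limma adjusted P = 0.145, and 0.0426 with the block). Ido1, which opens the kynurenine route, had 4462, 8735 and 6488 normalized counts in CD24negTomato+ and 1.35, 242 and 118 in Tomatoneg. The groups were wide apart, but the low Tomatoneg replicate 1 widened the spread. Its log2 fold change of 7.28 (SE 1.54) had an adjusted P of 0.0701, which was 0.0224 with the replicate block (0.00492 to 0.314 over all alternatives). In CD24+Tomato+ cells Ido1 had 669, 109 and 82.9 normalized counts against 1.45, 248 and 124, which overlapped (adjusted P = 0.480). In CD24negTomato+ 0 of the 6 passed with limma, and Ido1 alone had an unadjusted P under 0.05 and passed without Tomatoneg replicate 1.

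Most of the 13 serotonin receptor genes were too low to test. In CD24+Tomato+ 2 were tested and in CD24negTomato+ 1, and 0 passed with limma (1 and 0 at an unadjusted P under 0.05). Htr1d, an inhibitory receptor, had 82.5, 43.2 and 18 normalized counts in CD24+Tomato+ against 0, 2.58 and 6.96 (log2 fold change 3.76, adjusted P = 0.068). Of 7 other genes of the tachykinin system 2 were tested, and 0 passed in either table (0 at an unadjusted P under 0.05 in CD24negTomato+, and 1, Mme, in CD24+Tomato+). Mme encodes neprilysin, which degrades substance P. It had 12973, 3952 and 3968 normalized counts in CD24negTomato+ against 9705, 2133 and 652 (log2 fold change 1.30, adjusted P = 0.504), and 1331, 190.1 and 196 in CD24+Tomato+ against 10313, 2153 and 674 (-2.74, adjusted P = 0.153; 0.00234 with the block and 0.00234 to 0.408 over all alternatives).

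Of 16 other enterochromaffin genes, 13 of the 15 tested were higher and 0 lower in CD24+Tomato+ (0 lower at an unadjusted P under 0.05). In CD24negTomato+, 5 of the 13 tested were higher and 0 lower (9 higher with the block). Of all tested genes, 8.02% were higher in CD24+Tomato+ and 0.999% in CD24negTomato+ (4.34% with the block). The list was chosen with earlier results of these data known. Summed, the 16 genes had 78700.0 to 161931 normalized counts in CD24+Tomato+, 38048 to 82335 in CD24negTomato+ and 3245 to 5469 in Tomatoneg libraries. In CD24+Tomato+ the largest rises were those of Trpa1, an irritant-gated channel (log2 fold change 7.41), Scn3a, a sodium channel (7.37), Cartpt, a peptide precursor (6.79) and Galr1, a galanin receptor (6.41). Cartpt was at 0 in all Tomatoneg libraries, so its level was at least 34.0-fold higher. In CD24negTomato+ the genes that passed were Trpa1 (6.09), Adgrg4, an orphan adhesion receptor (5.69), Chgb (4.64) and Chga (3.81), both granins, and Reg4, a secreted lectin (3.23). Trpa1 did not pass there with a pseudocount of 0.1 (adjusted P = 0.108) or a filter at a mean of 50 (0.0526). Chga passed under every alternative in both tables. The counts without any 1 library were 5 to 13 in CD24+Tomato+, with 5 without replicate 2 and 8 without replicate 3 of that group. They were 1 to 9 in CD24negTomato+, with 1 without CD24negTomato+ replicate 1 or 2 and 9 without Tomatoneg replicate 1.

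Of 10 transcription factors of serotonergic differentiation, 7 of the 8 tested were higher and 0 lower in CD24+Tomato+ (0 lower at an unadjusted P under 0.05). Of all tested genes, 8.02% were higher there, and this list too was chosen with earlier results known. Lmx1b, the paralog of Lmx1a, had 99.9, 84.4 and 73.1 normalized counts against 0 in each Tomatoneg library and was at least 23.4-fold higher. Nkx2-2, Pax4 and Fev, factors of the endocrine and serotonergic programs, had log2 fold changes of 6.22, 6.13 and 4.63, and with a pseudocount of 0.1 Nkx2-2 (adjusted P = 0.102) and Pax4 (0.0618) did not pass. Fev and Mnx1, both higher, are also among the other enterochromaffin genes counted above. In CD24negTomato+, 0 of the 7 tested passed with limma (4 were higher at an unadjusted P under 0.05). With the replicate block 3 were higher: Fev (log2 fold change 2.01, adjusted P = 0.0675, and 0.0359 with the block), Foxa2 (1.94, 0.0702 and 0.0318) and Insm1 (2.22, 0.0577 and 0.0224), with ranges over all alternatives of 0.0345 to 0.357, 0.0293 to 0.339 and 0.0224 to 0.316. The CD24+Tomato+ count was 4, 2 and 3 without replicates 1, 2 and 3 of that group. The CD24negTomato+ count was 3 without Tomatoneg replicate 1 and 1 without Tomatoneg replicate 2.

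**Figure D4:**
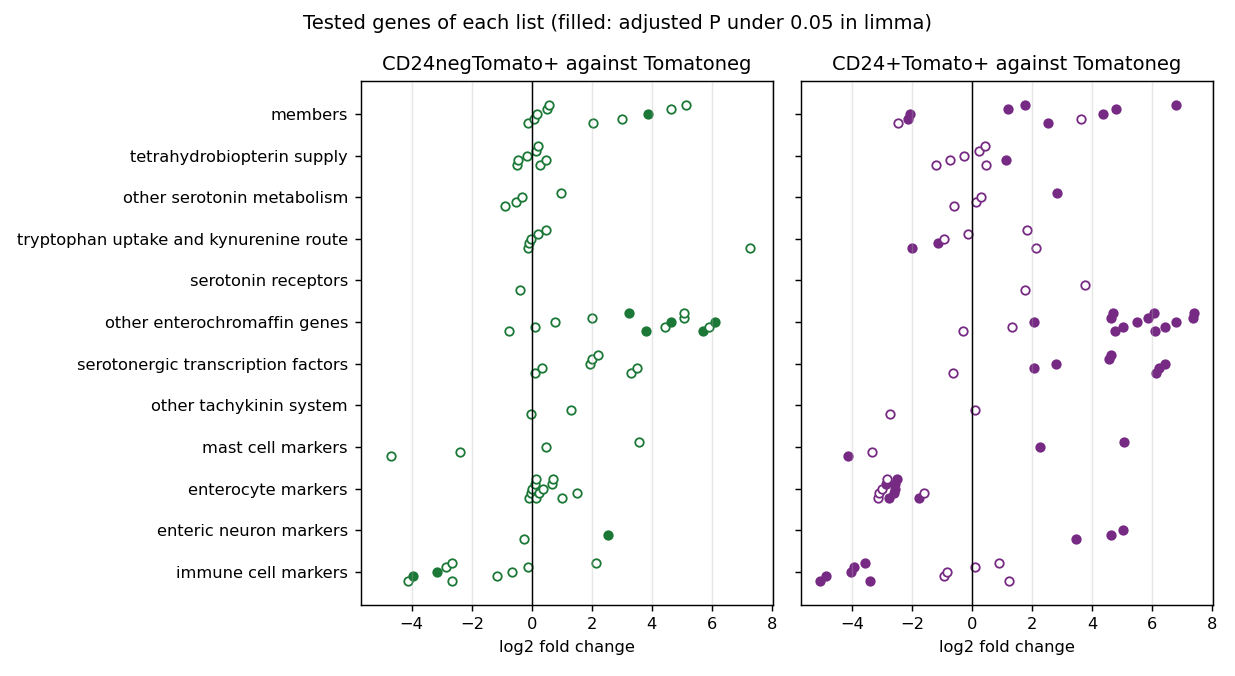
Each point is the log2 fold change of a tested gene against Tomatoneg in CD24negTomato+ (left) and CD24+Tomato+ (right), by gene list, and filled points passed an adjusted P of 0.05 in limma. Other enterochromaffin genes reach 7.41 on the right and 6.09 on the left among filled points, and the 12 enterocyte markers have medians of -2.69 on the right and 0.19 on the left.

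Serotonin is also made by mast cells and taken up by nerve fibres, so markers of other cell types were examined. Of 12 mast cell markers 4 were tested. The defining genes Tpsab1 and Fcer1a were at 0 in all libraries, and Ms4a2 and Cma1 were at or under 0.943 normalized counts, below the 3-read floor. Other markers were present in Tomatoneg cells. In the CD24negTomato+ table, Tomatoneg replicates had 39.6, 337 and 226 normalized counts of Mcpt1, 0, 120 and 112 of Mcpt2 and 0, 24.0 and 0 of Cpa3. Maxima for Mcpt1, Mcpt2 and Cpa3 were 18.2, 12.9 and 0 in CD24negTomato+ and 10.8, 4.98 and 0 in CD24+Tomato+. The tryptase gene Tpsb2 was above the floor in Tomato+ libraries, with 39.7, 24.6 and 15.4 normalized counts in CD24negTomato+ against 1.35, 3.22 and 0 (at least 7.6-fold higher, adjusted P = 0.165) and, not tested for its low mean, 13.2, 9.06 and 13.4 in CD24+Tomato+ against 1.46, 3.31 and 0. In CD24+Tomato+ the histidine decarboxylase gene Hdc (log2 fold change 5.04) and the receptor gene Kit (2.27) were higher and the protease gene Mcpt1 lower (-4.14), and in CD24negTomato+ 0 passed (without adjustment, 1 was higher and 1 lower). Summed levels were 1373 to 2113 against 188 to 1002 and 445 to 606 against 174 to 949. Kit alone had 1267 to 2024 against 142 to 642 and 381 to 571 against 131 to 607. Of 7 enteric neuron markers, 3 were tested in CD24+Tomato+ and 2 in CD24negTomato+. Ret, Chat and Tubb3 were higher in CD24+Tomato+ (3.47, 5.01 and 4.64) and Ret in CD24negTomato+ (2.53), with sums of 1569 to 2553 against 135 to 192 and 614 to 933 against 127 to 185. Ret alone had 1150 to 2180 and 596 to 891 normalized counts in these Tomato+ groups. Of the markers tested in neither table, Vip and Nos1 were at most 2.26 and 3.26 normalized counts in any library. Prph overlapped Tomatoneg in both tables. Elavl4 did not overlap, with 9.80 to 27.5 against 0 to 1.43 in CD24+Tomato+. Of 12 immune markers, 6 of 11 tested were lower in CD24+Tomato+, among them Itgb2 (-5.08), Cd79a (-4.88), Cd3e (-4.03) and Cd8a (-3.93), and 2 of 10 in CD24negTomato+, Itgb2 (-3.96) and Cd8a (-3.14), while 0 were higher (0 at an unadjusted P under 0.05). Their sums were 4303 to 20356 against 7445 to 44234 and 3018 to 28722 against 6879.9 to 42134. Cd74, which passed in neither table with limma, made up most of them. It had 3979 to 20127 against 5992 to 42330 and 2797 to 28319 against 5562 to 40341. A pseudocount of 0.1 ended the calls of Hdc (adjusted P = 0.0524) and Tubb3 (0.0513) in CD24+Tomato+ and of Itgb2 in CD24negTomato+ (0.0617). Hdc also did not pass with quantile normalization (0.0692), Itgb2 in CD24negTomato+ without a filter (0.0661) or at a mean of 50 (0.0551), nor Cd79a at a mean of 50 (0.0566). Without CD24+Tomato+ replicate 1, 2 or 3 the immune count was 3, 0 and 1, the mast cell count 0 and the neuron count 1, which was Ret. Without Tomatoneg replicate 2 the mast cell count was 1. In CD24negTomato+ the neuron count was 0 without any 1 of the CD24negTomato+ libraries, and the immune count was 0 without any 1 library other than Tomatoneg replicate 1, where it was 6. The part of these cell types in the differences of the 10 genes was not tested.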

How the data were processed

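RNA-Seq of 9 libraries, 3 each of CD24negTomato+, CD24+Tomato+ and Tomatoneg cells, was deposited by the authors as a signal, gene counts estimated by kallisto 0.44.0 against GRCm38 and normalized by DESeq2 in 2 tables of 6 libraries. Genes are given by symbol, and positions were taken from GENCODE M21. Factors differed between genes, and 37.5% to 60.1% of low values lay within 0.02 of a whole multiple of the value taken as 1 read. Whole reads were not recovered, and DESeq2, the test in the study's methods, was replaced by the moderated linear models of limma (version 3.58.1, R version 4.3.3, lmFit and eBayes with its trend option). They were fitted to log2(normalized count + 1), leaving out genes whose mean over the 6 libraries was under 10, two-sided, with Benjamini-Hochberg adjustment over all genes tested in a table and a threshold of 0.05. A fold change on this scale understates that of low genes. Floors of 3 reads cover counting error only. The script was tested on simulated data.

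Samples were grouped by the cell subtype in their labels, and no sample was left out. Replicate numbers are from the labels, which call the replicates biological. Deviations from the group means correlated between same-numbered libraries, by 0.302, 0.291 and 0.342 across 13420 genes in the CD24negTomato+ table. In the CD24+Tomato+ table, which holds the same Tomatoneg libraries, they correlated by 0.283, 0.18 and 0.375 across 13874 genes. Libraries with different numbers gave -0.231 to -0.0631 in the first and -0.364 to -0.0297 in the second. Neither the labels nor the methods say that same-numbered libraries share mice. The blocked fit was an alternative, beside pseudocounts of 0.1 and 10, no filter, a mean of at least 50, equal library totals, quantile normalization, a log2 fold change of at least 1, and leaving out each library.

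All 10 genes are named, with Foxo1, Neurog3, Cd24a and Epcam as checks, at most 4 passing genes of each list with the largest fold change, at most 4 defining genes of a list, and the 5 genes most like Tph1. Reg4, Fabp2, Ido1, Htr1d, Mme, Mnx1, Tpsb2, Mcpt2, Cpa3, Slc7a5, Cd74, Elavl4, Prph, Nos1 and Vip were added after their values were seen. So were the genes named for passing only with the block. The members and lists were chosen with earlier results of these data known. From these lists, 2 genes are not reported here and were left out of the lists' counts and sums. Promoter sequences are from RefSeq (GRCm38.p6), and Python 3.11.15 with pandas 2.3.3, numpy 2.4.6 and matplotlib 3.10.9 was used for summaries and figures.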

Additional observations from a re-analysis of the deposited data

Results flagged for a closer look

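Neurog3, Cd24a, Mme and Epcam changed sides between the tables. All 3 Tomato+ libraries lay on one side of the Tomatoneg mean of log2(normalized count + 1) in one table. They lay on the other side in the other table. Other listed genes, among them Fabp2, did so too. This contrast between CD24negTomato+ and CD24+Tomato+ was not tested, since the tables were scaled separately. Neurog3, the progenitor factor whose Cre marks the lineage, had a log2 fold change against Tomatoneg of -2.26 in CD24negTomato+ (14.6, 19.6 and 41.2 normalized counts against 80.2, 123 and 147, limma adjusted P = 0.126) and 3.25 in CD24+Tomato+ (1319, 1345 and 1364 against 102, 149 and 182, adjusted P = 0.00231). Cd24a, on whose product the cells were sorted, had -1.37 (adjusted P = 0.115, and 0.0133 with the replicate block) and 2.78 (0.003). Mme, which encodes the peptidase that degrades substance P, had 1.30 and -2.74, and passed the threshold in neither table without the replicate block. Epcam had 0.03 and -0.45, and passed in neither table.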

How the results depend on the processing

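Of 257 repeats of the 20 fold changes of the 10 genes, 221 kept their direction and side of the threshold, 19 lost and 10 gained the threshold, and 7 changed sign, all of them in CD24negTomato+ and far from the threshold. For all genes in CD24negTomato+ the number past the threshold was 177 (75.7% higher), and it was 112 with a pseudocount of 0.1, 415 with 10, 979 with the replicate block (59.4% higher), 276 with quantile normalization (66.7% higher) and 18 to 1059 without single libraries, while equal library totals left 158 of which 62.0% were higher. In CD24+Tomato+ it was 1791 (62.1% higher), with 2885 under the block (52.1% higher), 1728 under quantile normalization (52.3% higher) and 168 to 2478 without single libraries. Of the 10 genes, 1 passed in CD24negTomato+, with 2 at a pseudocount of 10, 4 with the replicate block and 0 to 5 without single libraries, and 8 in CD24+Tomato+, with 3 to 8 without single libraries. With 1 library left out, a group of 2 was assumed to vary like the other group. Values that changed sign in CD24negTomato+ were Slc6a4 (-0.39 to 0.11 without single libraries), Maoa (-0.04 with equal totals), Maob (-0.13 with equal totals, -0.0048 with quantile normalization, and -0.41 to 0.85 without single libraries) and Epcam (-0.17 with equal totals and -0.1 to 0.2 without single libraries). The median of all genes moved by -0.199 on the log2 scale with equal totals in CD24negTomato+ and by -0.195 with quantile normalization in CD24+Tomato+. Pairing by replicate number ended no call of the 10 genes. The causes were not tested. Counts were low for most receptors and, in Tomatoneg libraries, for Slc18a2 and Lmx1a, and the part of depth in this was not tested.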
